A study of Mus musculus with 6 samples.

Results

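The genes described here are those whose platform symbol begins with Il and a digit, taken from probe sets that carry exactly 1 gene symbol. They numbered 73 of 18193 genes, measured by 115 probe sets, and comprised 34 ligands, 36 receptor chains and 3 others (the binding protein gene Il18bp, the enzyme gene Il4i1 and Il1bos, an RNA opposite Il1b). A gene with several probe sets is represented by the probe set with the highest mean over the 6 arrays. The series measured the whole spleen of adult F1 females of 2 matings, AKR/J by FVB/NJ (AKR/J F1, 3 arrays) and DBA/2J by FVB/NJ (DBA/2J F1, 3 arrays). Every animal therefore carries 1 FVB/NJ set of chromosomes, and the groups differ in the other parent. All were killed by cervical dislocation under Avertin, their tissue was frozen in liquid nitrogen, and no treatment is labelled. The series compared baseline expression between the genotypes, and the labels name no shared litter or day and do not state that each array is a separate animal, so the p-values measure the spread between these samples. Values are on the log2 scale, and each difference subtracts the DBA/2J F1 mean from the AKR/J F1 mean, so a negative value is higher in DBA/2J F1 spleens.

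Interleukins are secreted proteins through which leukocytes and stromal cells instruct one another, and each acts on cells that carry the matching receptor chains. Most interleukin receptors signal through Janus kinases and STAT transcription factors, whereas the IL-1 family receptors use the adaptor Myd88 with kinases of the IRAK family, and the IL-17 family receptors use the adaptor encoded by Traf3ip2. In the spleen, IL-7 and its receptor maintain T cells, IL-12, IL-18 and IL-27 act on T and NK cells, and IL-1, IL-6 and IL-10 are made and sensed by macrophages and dendritic cells.

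The 6 arrays had medians between 5.04 and 5.10, with a larger spread of values in AKR/J F1 spleens (SD 2.32 to 2.34) than in DBA/2J F1 spleens (2.26 to 2.28). Spleen identity genes were present: the transcription factor genes Tlx1 and Nkx2-5 and the sinus receptor gene Stab2 lay above the median on all 6 arrays. Limma called 2755 of 18193 genes at an adjusted p of 0.05 (15.1%), 1418 higher in AKR/J F1 spleens (7.79%) and 1337 higher in DBA/2J F1 spleens (7.35%), so 51.5% of calls were toward AKR/J F1 spleens, against 62.6% with each array centred on its own median and 40.7% after quantile normalization. The number was 603 to 2911 when 1 array was left out. A list of 8 T cell genes averaged 8.63 to 8.72 in AKR/J F1 spleens and 8.12 to 8.22 in DBA/2J F1 spleens, while 8 erythroid genes averaged 7.91 to 8.58 and 9.67 to 10.45. A list of 8 pancreatic acinar genes averaged 13.35 to 13.92 on 5 of the 6 arrays, although the labels name spleen alone. The list averaged 6.35 on the remaining array, DBA/2J F1 replicate 3. So 5 arrays carried strong pancreatic acinar signal, and its source was not tested. Without DBA/2J F1 replicate 3 limma called 746 genes, 0 ligands and 0 receptors, with Il18bp and Il4i1 still past the threshold. Without DBA/2J F1 replicate 2, whose acinar average was 13.72, it called 603 genes, 0 ligands and 0 receptors. Without DBA/2J F1 replicate 1 the counts were 2911, 4 and 6. Leaving out any 1 AKR/J F1 array gave 0 to 1 ligands and 1 receptor. What part the acinar signal or the loss of 1 array has in these counts was not tested. In whole tissue, fewer cells of a type and less RNA per cell cannot be told apart.

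The called interleukin genes differed by less than 2-fold between the crosses, and they were called about as often as genes as a whole. Of 34 ligands, 3 were higher in DBA/2J F1 spleens and 0 in AKR/J F1 spleens, all 3 of the IL-1 family (Il1a, Il1f5 and Il1f6), where 7.35% of all genes were called toward DBA/2J F1. Of 36 receptors, 4 were higher in AKR/J F1 spleens (Il17ra, Il27ra, Il10rb and Il6ra) and 2 in DBA/2J F1 spleens (Il17re and Il17rb). Il18bp was higher in AKR/J F1 spleens and Il4i1 in DBA/2J F1 spleens. The called differences were 1.29-fold to 1.47-fold, and 0 of the 73 genes differed by 2-fold or more, against 299 of all 18193 genes. The members' call rate, 11 of 73, is close to the 15.1% of all genes. The crosses did not overlap in 2 ligands and 10 receptors with all AKR/J values on top (22% of all genes) and in 11 ligands and 3 receptors with all DBA/2J values on top (19.2%). At an unadjusted p under 0.05 there were 13 of 34 ligands and 13 of 36 receptors, beside 6391 of all 18193 genes. The median difference was -0.09 for ligands and 0.07 for receptors, beside -0.01 for all genes.

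**Figure D1:**
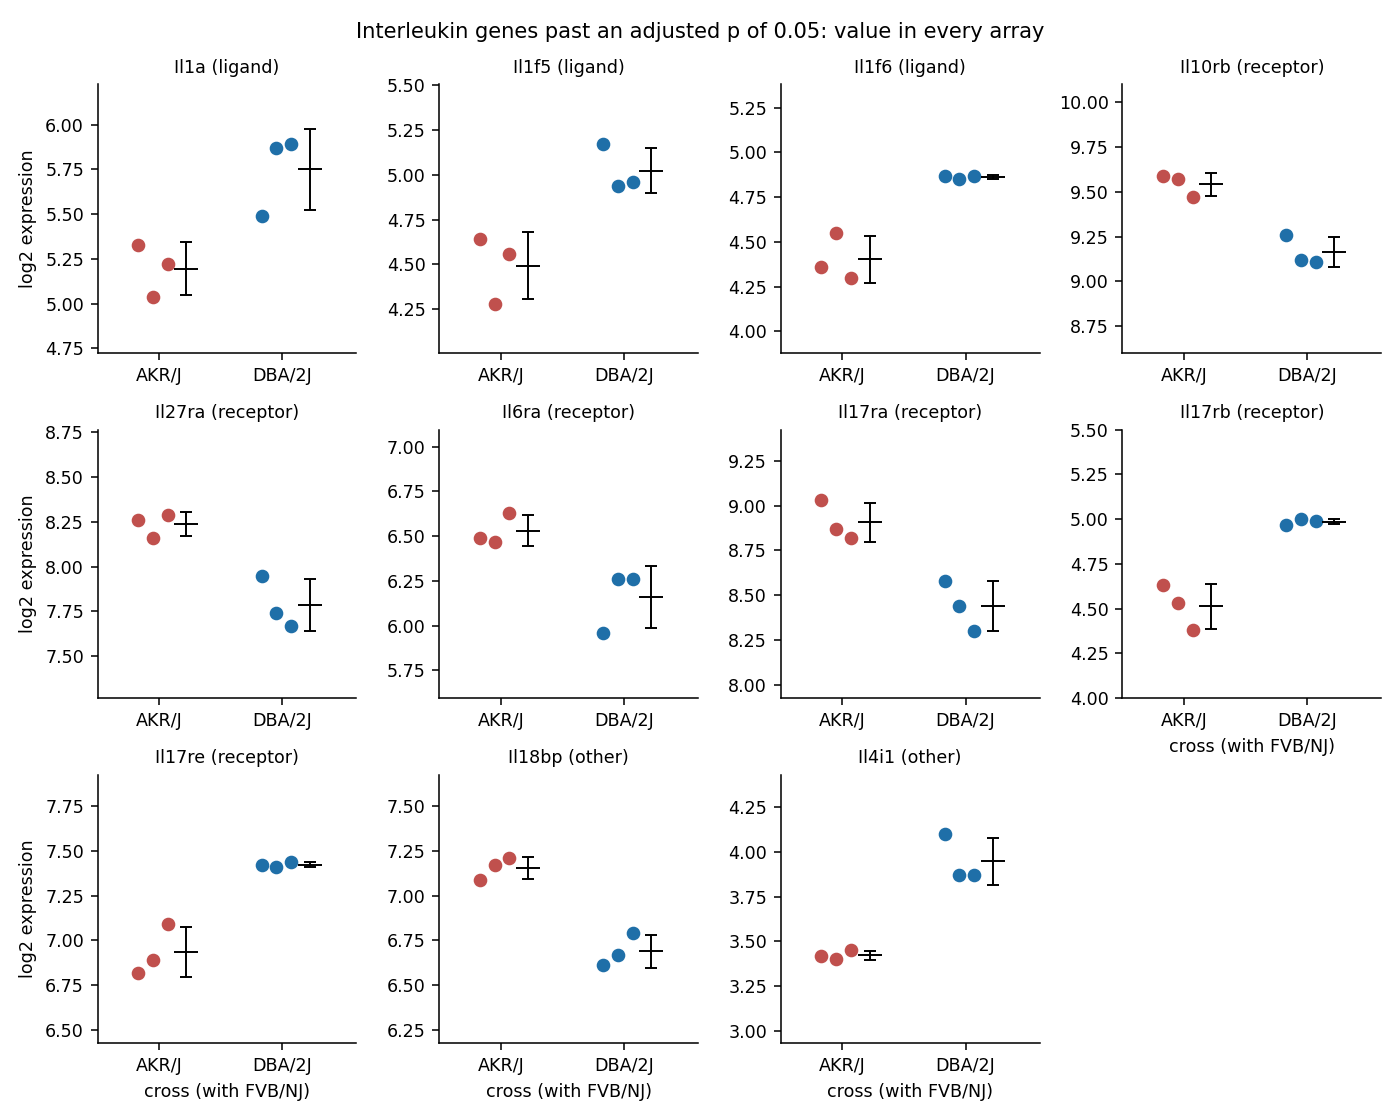
Log2 expression of the 11 interleukin genes past an adjusted p of 0.05 in limma, 1 panel per gene, with each array as a point and the mean and SD of 3 arrays beside it; every panel spans the same 1.5 log2 units. In all 11 genes the 3 arrays of one cross lie above the 3 of the other, as in 41.2% of all genes. The 11 were chosen by a test on these same values, so the separation is no further support for them.

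Whether ligands and receptors differ from each other was not tested, and differences over all genes varied with level. The 6395 genes that lay above the array median on no array had a median difference of -0.12, and 8.85% were called, 485 higher in DBA/2J F1 spleens (7.58%) and 81 in AKR/J F1 spleens (1.27%). The 10679 genes above the median on all arrays had a median of 0.09, and 17.7% were called, 677 (6.34%) and 1209 (11.3%) in the same order. Most ligands were dim: 20 of the 34 lay above the median on no array, and their median difference was -0.17, with 17 of the 20 values below 0. The 10 ligands above the median on all arrays had a median of 0.09, equal to that of all genes at that level. The 20 receptors above the median on all arrays had a median of 0.17, and the 12 above it on no array 0.01. After quantile normalization, which gives every array the same distribution, the medians of dim and bright genes were -0.04 and 0.02, and the ligand and receptor medians were -0.07 and 0.11.

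**Figure D2:**
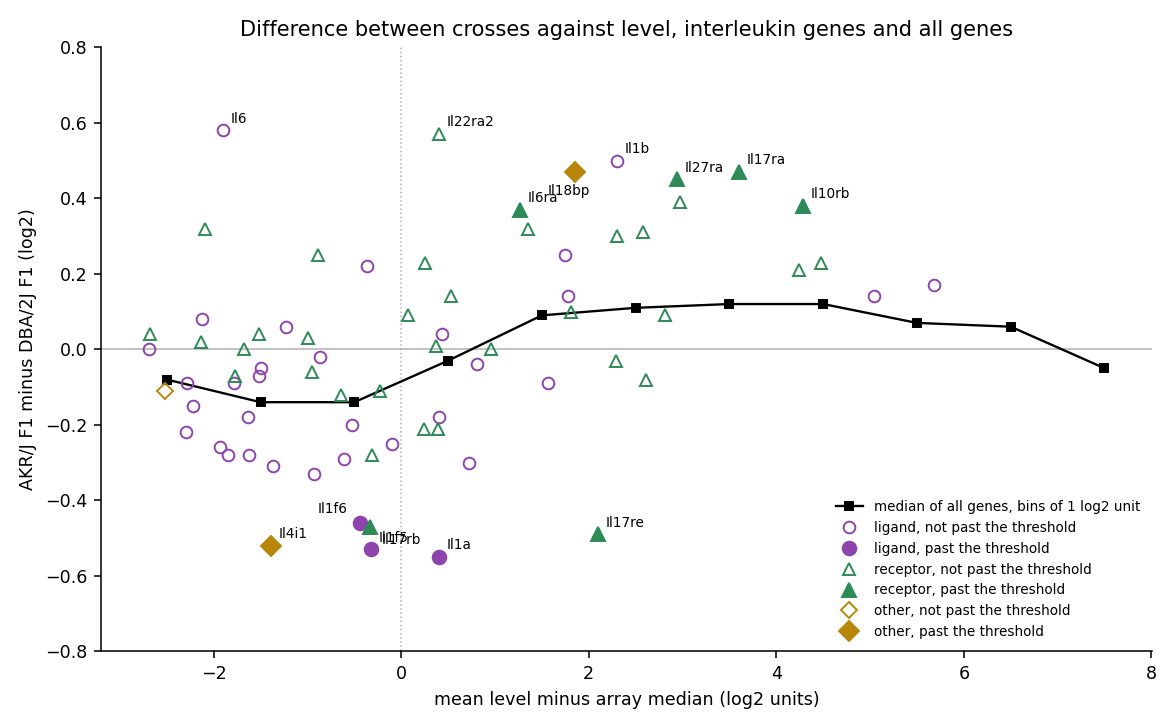
Difference between crosses (AKR/J F1 minus DBA/2J F1, log2) against the mean level relative to the array median for the 73 interleukin genes, with filled symbols past an adjusted p of 0.05; black squares join the median difference of all genes in bins of 1 log2 unit. The all-gene median is -0.08 in the dimmest bin, lowest at -0.14 just below the array median, highest at 0.12 above it and -0.05 in the brightest bin, and the 11 filled symbols lie beyond it on either side.

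Levels were counted against the array median. Above the median on all 6 arrays lay 10 of 34 ligands (29.4%) and 20 of 36 receptors (55.6%), beside 58.7% of all genes. Measured against the median over genes in place of the median over probe sets, the counts were 6 ligands and 13 receptors. A probe set's brightness depends on its sequence as well as on transcript amount, so these counts state how each probe set stood on its array and give no order of abundance between genes.

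Among the ligands, Il16 and Il18 lay farthest above the median. Il16, the chemoattractant for CD4-bearing cells, stood at 10.69, 10.75 and 11.07 in AKR/J F1 spleens and 10.69, 10.56 and 10.75 in DBA/2J F1 spleens. Il18, which promotes interferon gamma production by NK and T cells, stood at 10.21, 10.07 and 10.28 in AKR/J F1 spleens and 10.08, 9.91 and 10.15 in DBA/2J F1 spleens. The crosses overlapped in both genes, with differences of 0.17 ± 0.12 (SE; adjusted p = 0.328) and 0.14 ± 0.10 (adjusted p = 0.346). Il1b, the inflammatory cytokine of macrophages and neutrophils, stood at 7.44, 7.90 and 7.53 in AKR/J F1 spleens and 7.22, 6.76 and 7.40 in DBA/2J F1 spleens. Each AKR/J array exceeded each DBA/2J array for Il1b, but the difference of 0.50 ± 0.18 did not pass (adjusted p = 0.0908). The alarmin gene Il33 stood at 7.27, 6.67 and 6.82 in AKR/J F1 spleens and 6.93, 6.63 and 6.78 in DBA/2J F1 spleens. Il12a, which encodes the p35 chain shared by IL-12 and IL-35, stood at 6.77, 6.83 and 7.24 in AKR/J F1 spleens and 6.54, 6.62 and 6.93 in DBA/2J F1 spleens. These genes overlapped between the crosses, with differences of 0.14 ± 0.16 and 0.25 ± 0.15 that did not pass. The lymphocyte survival factor gene Il7 stood at 6.64, 6.50 and 6.66 in AKR/J F1 spleens and 6.73, 6.71 and 6.62 in DBA/2J F1 spleens. Il34, a ligand of the macrophage growth factor receptor, stood at 5.78, 5.82 and 5.99 in AKR/J F1 spleens and 5.67, 6.03 and 6.03 in DBA/2J F1 spleens. Both overlapped, with differences of -0.09 ± 0.08 and -0.04 ± 0.12. Il15, which sustains NK cells and memory T cells, differed by 0.04 ± 0.08.

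The cytokines that define effector T cell subsets were below the median on every array. Il2, the T cell growth factor, had means of 3.36 and 3.54 in AKR/J F1 and DBA/2J F1 spleens, Il4 3.52 and 3.59, Il5 3.25 and 3.34, Il13 3.01 and 3.27, Il17a 3.31 and 3.59, and Il21 2.75 and 2.84. None of these 6 passed. The regulatory cytokine gene Il10 (2.99 and 2.91) and the inducible chains Il12b (3.55 and 3.60) and Il23a (3.55 and 3.86) were also below the median throughout, and Il23a stood at 3.55, 3.53 and 3.57 in AKR/J F1 spleens and 3.73, 4.06 and 3.79 in DBA/2J F1 spleens. Its difference of -0.31 ± 0.10 did not pass (adjusted p = 0.0690), although the crosses did not overlap, and it passed without DBA/2J F1 replicate 1 (adjusted p = 0.0483). Outside the IL-1 and IL-17 families, Il20, a cytokine of skin epithelium, differed by -0.29 and Il11, a gp130 cytokine, by 0.22, with Il9, Il3, Il31 and Il24 at -0.20, -0.22, -0.00 and 0.06. These 6 genes also lay below the median on every array, and 0 of them passed in limma, with Il20 and Il11 at an unadjusted p under 0.05. Of the 6395 genes above the median on no array, 8.85% were called and 1717 had an unadjusted p under 0.05.

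**Figure D3:**
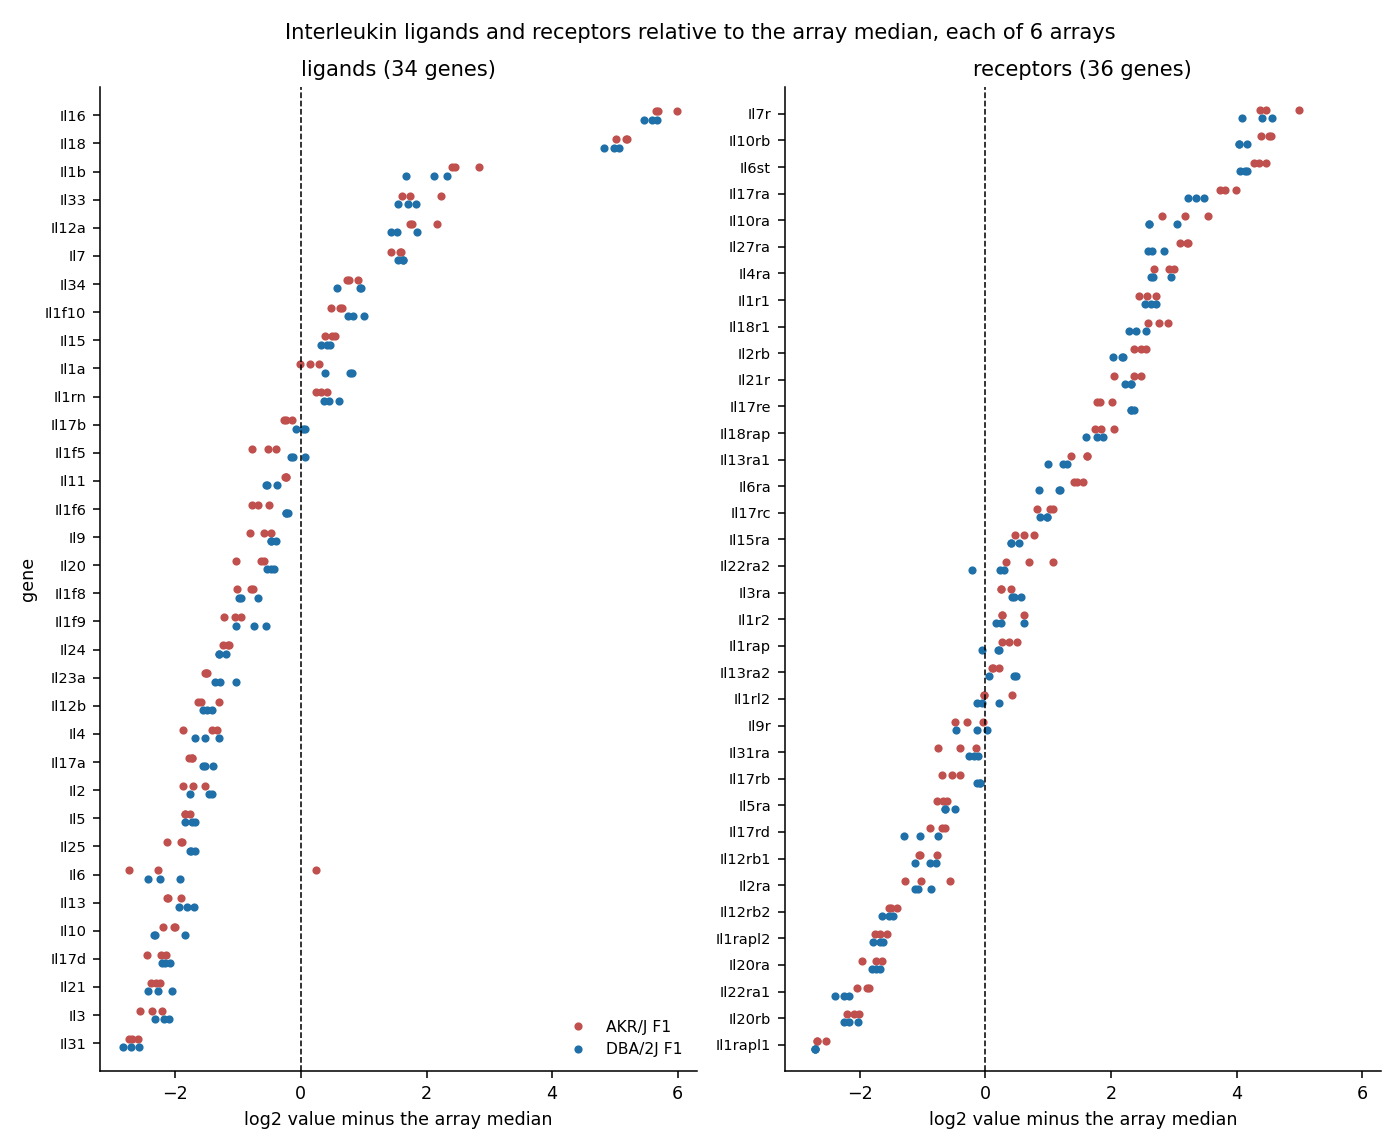
Log2 value minus the array median for each of the 34 ligands (left) and 36 receptors (right), with 1 point per array, AKR/J F1 in red and DBA/2J F1 in blue; the dashed line is the array median. Il16 and Il18 stand apart among ligands, and the single Il6 point to the right of the line is AKR/J F1 replicate 3.

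Il6, the acute phase cytokine, was high in a single array. It stood at 2.31, 2.78 and 5.32 in AKR/J F1 spleens and 2.66, 2.85 and 3.15 in DBA/2J F1 spleens. The 5.32 belongs to AKR/J F1 replicate 3, and the other 5 arrays lie between 2.31 and 3.15. The difference of 0.58 ± 0.66 did not pass (adjusted p = 0.554), and without that array it was -0.34 ± 0.19 (adjusted p = 0.261). Socs3, a feedback inhibitor of IL-6 signalling, stood at 6.55 on that array and between 6.63 and 7.62 on the others. Nfkbiz, another signalling gene, went the other way, at 9.17 on that array and between 7.52 and 8.51 on the others. Whether either gene is related to the Il6 value was not tested.

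The IL-1 family ligands held all the ligand calls. Il1a, which encodes the cell-associated IL-1 alpha, stood at 5.33, 5.04 and 5.22 in AKR/J F1 spleens and 5.49, 5.87 and 5.89 in DBA/2J F1 spleens. All 3 DBA/2J arrays lay above the AKR/J arrays, with a difference of -0.55 ± 0.13 (adjusted p = 0.0290). Il1a lies beside Il1b in the reference gene order, where Il1b had a difference of 0.50, the opposite sign. Il1f5, now called Il36rn, encodes an antagonist of the IL-36 receptor. It stood at 4.64, 4.28 and 4.56 in AKR/J F1 spleens and 5.17, 4.94 and 4.96 in DBA/2J F1 spleens (difference -0.53 ± 0.12, adjusted p = 0.0256). Its second probe set differed by -0.37 ± 0.11 and did not pass (adjusted p = 0.0731 over probe sets). Il1f6, the agonist IL-36 alpha, stood at 4.36, 4.55 and 4.30 in AKR/J F1 spleens and 4.87, 4.85 and 4.87 in DBA/2J F1 spleens (difference -0.46 ± 0.09, adjusted p = 0.0192). The 3 DBA/2J values of Il1f6 lie within 0.02 of each other, and the crosses do not overlap. Il1f6 was below the median on all 6 arrays and Il1f5 on 5, and the files give no detection calls, so their distance from background is not known.

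Il1f5 and Il1f6 belong to a run of 6 measured neighbours in the reference gene order, Il1f8, Il1f9, Il1f6, Il1f5, Il1f10 and Il1rn, with at most 3 protein-coding genes between adjacent members. The others had differences of -0.02 (Il1f8, IL-36 beta), -0.33 ± 0.13 (Il1f9, IL-36 gamma, adjusted p = 0.120), -0.30 ± 0.10 (Il1f10, IL-38, adjusted p = 0.0758) and -0.18 (Il1rn, the IL-1 receptor antagonist, adjusted p = 0.228). All 6 values were negative, and 2 of the 6 passed. Il1f8, Il1f9 and Il1f6 lay above the median on no array, where 4917 of 6395 genes had a negative difference and 7.58% were called higher in DBA/2J F1 spleens. Il1f9 stood at 4.08, 4.01 and 3.85 in AKR/J F1 spleens and 4.55, 4.05 and 4.33 in DBA/2J F1 spleens, overlapping. Il1f10 stood at 5.52, 5.68 and 5.74 in AKR/J F1 spleens and 6.10, 5.84 and 5.91 in DBA/2J F1 spleens, without overlap. The Il1rl2 receptor, through which the IL-36 proteins act, had a brighter probe set with a difference of 0.09 ± 0.15 (adjusted p = 0.730 over probe sets) and a dimmer one at 4.12, 4.26 and 4.06 in AKR/J F1 spleens and 4.70, 4.57 and 4.54 in DBA/2J F1 spleens (difference -0.46 ± 0.09, adjusted p = 0.0226 over probe sets). Il1rl2 thus gives no single direction.

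The promoter windows of these ligands are shown because Il1a and Il1f5 were called and Il1f9, which did not pass, lies in the same run as Il1f5 and was picked because its window holds the motif. Each runs from 250 bases before to 50 after an annotated start, 5′ to 3′ on the gene's strand, from RefSeq on assembly GRCm38.p6. Capitals mark the STAT half-site pair TTCNNNGAA, which reads the same on both strands apart from its central letters and was searched without regard to other motifs. Il1a lies on the minus strand at chr2:129309923-129310222, Il1f5 on the plus strand at chr2:24277021-24277320, and Il1f9 on the plus strand at chr2:24186226-24186525.
Il1a: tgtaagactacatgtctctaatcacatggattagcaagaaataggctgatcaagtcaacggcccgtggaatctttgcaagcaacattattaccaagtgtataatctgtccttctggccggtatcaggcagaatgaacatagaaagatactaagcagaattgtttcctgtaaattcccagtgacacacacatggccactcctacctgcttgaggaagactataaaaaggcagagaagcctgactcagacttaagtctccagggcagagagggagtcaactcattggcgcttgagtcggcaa
Il1f5: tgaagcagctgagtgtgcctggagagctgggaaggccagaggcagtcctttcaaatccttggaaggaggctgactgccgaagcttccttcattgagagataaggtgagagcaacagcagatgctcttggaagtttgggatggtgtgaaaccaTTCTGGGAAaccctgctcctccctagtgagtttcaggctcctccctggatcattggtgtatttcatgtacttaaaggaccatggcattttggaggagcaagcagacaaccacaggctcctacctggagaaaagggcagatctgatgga
Il1f9: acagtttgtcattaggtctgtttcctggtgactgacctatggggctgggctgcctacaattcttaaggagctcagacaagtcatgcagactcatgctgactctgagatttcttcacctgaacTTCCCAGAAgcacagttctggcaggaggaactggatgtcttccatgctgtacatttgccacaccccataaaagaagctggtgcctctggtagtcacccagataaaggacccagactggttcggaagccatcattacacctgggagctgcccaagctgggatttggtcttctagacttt
The Il1f5 window holds TTCTGGGAA beginning at position -98 from the start, and the Il1f9 window TTCCCAGAA at -128. The Il1a window and an earlier Il1f5 window hold no match, nor do the other windows found in the run, 1 each of Il1f8 and Il1f10 and 3 of Il1rn. The motif was present in 10 of 70 windows of members (14.3%) and in 8.3% of all 32851 windows. A match describes letters and not a bound site.

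Among the receptors, Il7r, Il10rb and Il6st lay farthest above the median. Il7r, the IL-7 receptor chain of T cells and B cell precursors, stood at 9.50, 9.43 and 10.08 in AKR/J F1 spleens and 9.18, 9.66 and 9.48 in DBA/2J F1 spleens. These overlapped, with a difference of 0.23 ± 0.19 (adjusted p = 0.409). Il6st, the gp130 signal transducer shared by IL-6 and related cytokines, stood at 9.39, 9.33 and 9.54 in AKR/J F1 spleens and 9.16, 9.23 and 9.24 in DBA/2J F1 spleens. The crosses did not overlap, yet the difference of 0.21 ± 0.09 did not pass (adjusted p = 0.127). Of its 4 probe sets, the second brightest passed (0.37 ± 0.09, adjusted p = 0.0363 over probe sets), where 10.4% of all probe sets were called. Il4ra, which binds IL-4 and takes part in IL-13 signalling, stood at 7.97, 8.07 and 7.76 in AKR/J F1 spleens and 8.05, 7.73 and 7.75 in DBA/2J F1 spleens. Il21r, the IL-21 receptor of lymphocytes, stood at 7.51, 7.42 and 7.12 in AKR/J F1 spleens and 7.42, 7.41 and 7.30 in DBA/2J F1 spleens. Il1r1, the signalling IL-1 receptor, stood at 7.62, 7.51 and 7.79 in AKR/J F1 spleens and 7.74, 7.63 and 7.80 in DBA/2J F1 spleens. All 3 overlapped, with differences of 0.09 ± 0.12, -0.03 ± 0.11 and -0.08 ± 0.10.

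Of the 4 receptors called higher in AKR/J F1 spleens, Il17ra is the common chain of the IL-17 receptors. It stood at 9.03, 8.87 and 8.82 in AKR/J F1 spleens and 8.58, 8.44 and 8.30 in DBA/2J F1 spleens, a 1.38-fold difference (0.47 ± 0.10, adjusted p = 0.0248). Its second probe set differed by 0.35 ± 0.10 (adjusted p = 0.0622 over probe sets). Il27ra, the receptor chain for IL-27 on T and NK cells, stood at 8.26, 8.16 and 8.29 in AKR/J F1 spleens and 7.95, 7.74 and 7.67 in DBA/2J F1 spleens. That is a 1.36-fold difference (0.45 ± 0.10, adjusted p = 0.0254). The product of Ebi3 pairs with the IL-27 ligand chain. Ebi3 stood at 7.58, 7.53 and 7.54 in AKR/J F1 spleens and 7.51, 7.27 and 7.29 in DBA/2J F1 spleens. Its difference of 0.19 ± 0.09 did not pass (adjusted p = 0.175). Il10rb, the chain shared by the receptors for IL-10, IL-22 and interferon lambda, stood at 9.59, 9.57 and 9.47 in AKR/J F1 spleens and 9.26, 9.12 and 9.11 in DBA/2J F1 spleens (0.38 ± 0.08, adjusted p = 0.0265). Its dimmer probe set gave a like value of 0.37 ± 0.19 with overlapping arrays (adjusted p = 0.227 over probe sets), and their mean did not pass (0.37, adjusted p = 0.0732). Il6ra, the ligand-binding chain for IL-6, stood at 6.49, 6.47 and 6.63 in AKR/J F1 spleens and 5.96, 6.26 and 6.26 in DBA/2J F1 spleens (0.37 ± 0.11, adjusted p = 0.0494). Il6ra is a borderline call: its second probe set differed by -0.14 ± 0.08, and the mean of both by 0.11 (adjusted p = 0.337). In all 4 genes the crosses did not overlap, as in 41.2% of all genes counted in either direction.

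These 4 calls did not pass after quantile normalization, with adjusted p = 0.0549 for Il17ra, 0.0664 for Il27ra, 0.0697 for Il10rb and 0.0957 for Il6ra, and differences of 0.39, 0.36, 0.30 and 0.31. In the main fit, T cell markers lay on the same side as these receptors: 8 of 8 measured T cell genes were called higher in AKR/J F1 spleens. So were 3 of 7 B cell, 2 of 5 NK cell, 2 of 8 macrophage and monocyte and 3 of 6 dendritic cell genes, with 0 of these 34 higher in DBA/2J F1 spleens. In that direction 7.79% of all genes were called, and 11.3% of genes above the median on all arrays. Other lists had 0 calls: 7 neutrophil genes (7 differences below 0), 6 mast cell and basophil genes (6 below 0) and 5 stroma genes (1 below 0). The B cell list averaged 10.85 to 11.01 in AKR/J F1 spleens and 10.53 to 10.83 in DBA/2J F1 spleens, the NK cell list 7.47 to 7.60 and 7.10 to 7.27, the macrophage and monocyte list 9.84 to 9.93 and 9.59 to 9.70, and the dendritic cell list 7.16 to 7.25 and 6.76 to 7.0. Their part in the receptor differences was not tested.

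Within the IL-17 receptor family, called members lay on either side. Il17re, a receptor chain for IL-17C, stood at 6.82, 6.89 and 7.09 in AKR/J F1 spleens and 7.42, 7.41 and 7.44 in DBA/2J F1 spleens. It was 1.41-fold higher in DBA/2J F1 spleens (-0.49 ± 0.09, adjusted p = 0.0168), and -0.58 (adjusted p = 0.0109) after quantile normalization. Its 2 dimmer probe sets each differed by -0.27 and did not pass (adjusted p = 0.126 and 0.161 over probe sets). Il17rb, the IL-25 receptor chain, stood at 4.63, 4.53 and 4.38 in AKR/J F1 spleens and 4.97, 5.0 and 4.99 in DBA/2J F1 spleens (-0.47 ± 0.09, adjusted p = 0.0171), below the median on all arrays. In both genes the 3 DBA/2J arrays lie within 0.03 of each other and above all AKR/J arrays. Il17rc, which pairs with the Il17ra chain and lies next to Il17re, differed by -0.00 ± 0.10 (6.03 in each cross), and Il17rd by 0.25 ± 0.15 (adjusted p = 0.246). The 4 ligands of the family had differences of -0.15 (Il17d), -0.25 (Il17b), -0.28 (Il17a) and -0.28 (Il25). Of the 4, 0 passed in limma and 3 had an unadjusted p under 0.05, beside 15.1% and 6391 of 18193 over all genes. With each gene's probe sets averaged, Il17a (adjusted p = 0.0407) and Il17b (adjusted p = 0.0499) passed, and Il17a passed in the fit on 1 probe set per gene (adjusted p = 0.0462).

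The windows of Il17rb and Il17re, the receptors higher in DBA/2J F1 spleens, are given in the same form, Il17rb from the minus strand at chr14:30008847-30009146 and Il17re from the plus strand at chr6:113458521-113458820.
Il17rb: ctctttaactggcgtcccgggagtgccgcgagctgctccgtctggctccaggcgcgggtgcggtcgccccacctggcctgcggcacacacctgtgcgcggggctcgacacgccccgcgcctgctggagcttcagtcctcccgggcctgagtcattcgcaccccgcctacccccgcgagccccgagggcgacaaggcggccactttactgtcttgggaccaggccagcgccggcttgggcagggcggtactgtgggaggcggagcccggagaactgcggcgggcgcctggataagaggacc
Il17re: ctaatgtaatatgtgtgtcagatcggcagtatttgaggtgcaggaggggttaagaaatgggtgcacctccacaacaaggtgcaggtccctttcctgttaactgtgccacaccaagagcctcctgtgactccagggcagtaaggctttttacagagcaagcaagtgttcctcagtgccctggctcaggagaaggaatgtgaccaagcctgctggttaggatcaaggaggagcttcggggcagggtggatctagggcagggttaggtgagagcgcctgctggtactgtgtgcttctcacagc
Neither holds TTCNNNGAA. Their base composition differs, with 72% G and C in the Il17rb window and 53.7% in the Il17re window, beside a median of 52.7% over all windows and 44.7% in the Il1a window.

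**Figure D4:**
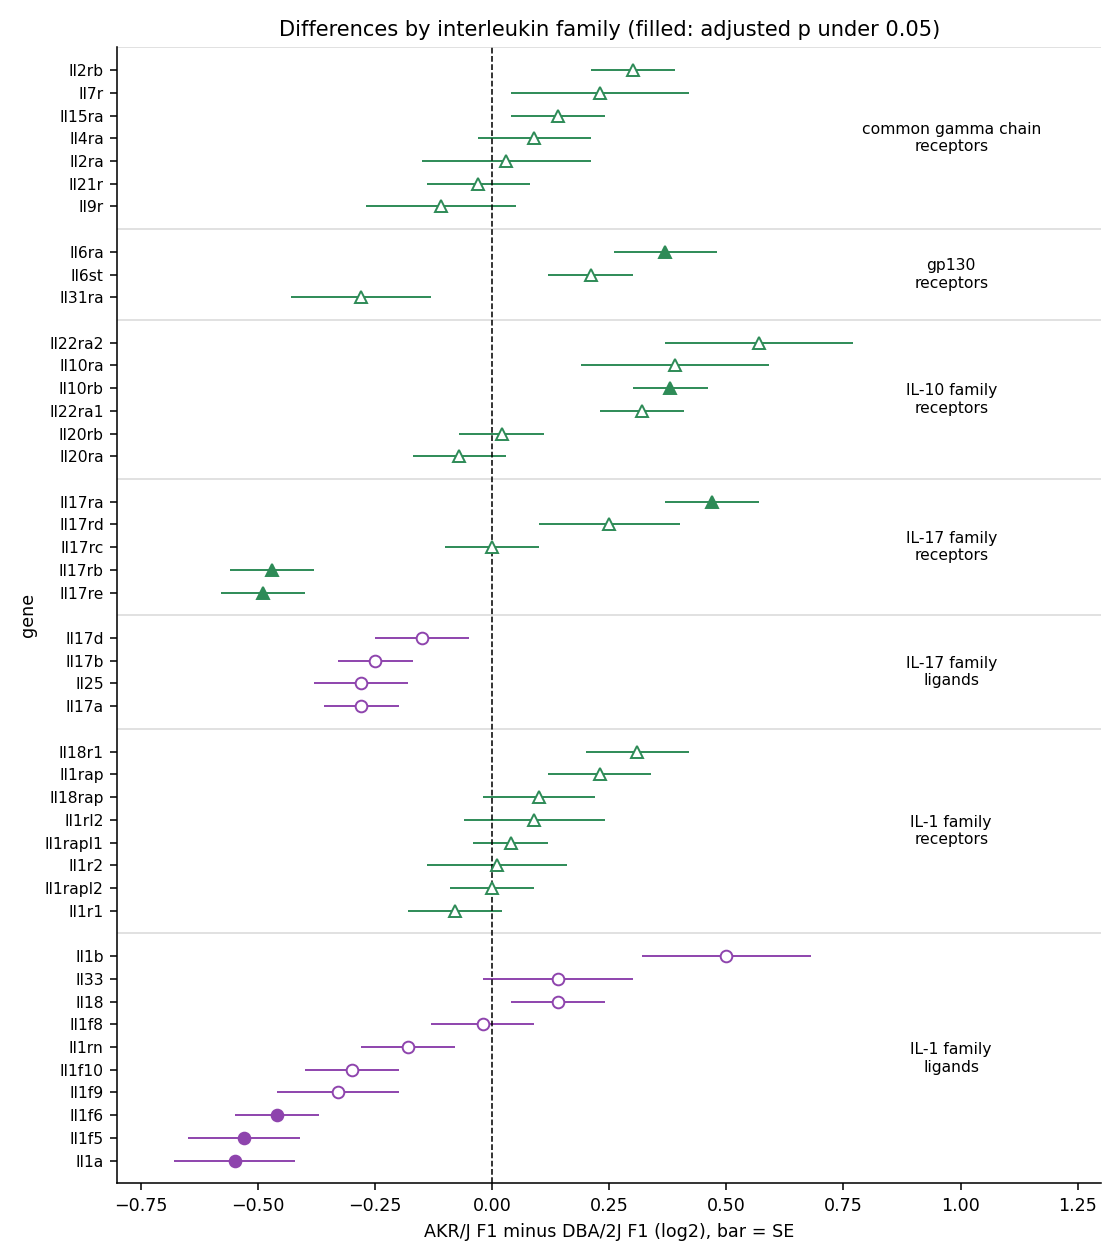
Difference between crosses (log2, bar = SE) for members of 5 interleukin families, ligands as circles and receptors as triangles, filled past an adjusted p of 0.05. Il17ra and Il17re are called on opposite sides of 0, and 7 of the 10 IL-1 family ligands are negative.

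Of the 6 IL-10 family receptors, 1 was called (Il10rb), 5 differences were positive and the median was 0.35. Over all genes 15.1% were called. Of the 6, 2 lay above the median on all arrays, where 6923 of 10679 genes had a positive difference. Another 3 lay above it on no array, where 1478 of 6395 genes had a positive difference. Il22ra2, a soluble decoy receptor for IL-22, had the largest positive difference among receptors. It stood at 5.73, 5.39 and 6.16 in AKR/J F1 spleens and 4.89, 5.38 and 5.31 in DBA/2J F1 spleens (0.57 ± 0.20, adjusted p = 0.0885). The crosses are separated by 0.01, and the spread within each is wide. Il10ra, the IL-10 binding chain, stood at 7.85, 8.23 and 8.63 in AKR/J F1 spleens and 7.71, 7.69 and 8.13 in DBA/2J F1 spleens, overlapping (0.39 ± 0.20, adjusted p = 0.196). Il22ra1, the IL-22 receptor chain of epithelia, was dim, at 3.19, 3.18 and 3.04 in AKR/J F1 spleens and 2.93, 2.84 and 2.69 in DBA/2J F1 spleens (0.32 ± 0.09, adjusted p = 0.0537). It passed after quantile normalization (0.41, adjusted p = 0.0321). Il20ra and Il20rb, chains of the IL-20 receptors, differed by -0.07 and 0.02.

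Over all genes 15.1% passed in limma, and 6391 of 18193 had an unadjusted p under 0.05. In the IL-1 receptor family 0 of 8 genes passed, with 1 at an unadjusted p under 0.05. That gene was Il18r1, the IL-18 binding chain, at 7.94, 7.65 and 7.84 in AKR/J F1 spleens and 7.66, 7.49 and 7.36 in DBA/2J F1 spleens (0.31 ± 0.11, adjusted p = 0.0890). The crosses overlap at 7.65 and 7.66. Its partner chain Il18rap differed by 0.10 ± 0.12, the accessory protein Il1rap by 0.23 ± 0.11 (adjusted p = 0.174), and the decoy receptor Il1r2 by 0.01 ± 0.15. The dim relatives Il1rapl1 and Il1rapl2 differed by 0.04 and 0.00. Of the 5 neighbours Il1r2, Il1r1, Il1rl2, Il18r1 and Il18rap, 0 passed, beside the 15.1% of all genes.

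In the common gamma chain receptor family 0 of 7 passed in limma, with 1 at an unadjusted p under 0.05. The same counts over all genes were 15.1% and 6391 of 18193. Il2rb, the chain shared by the IL-2 and IL-15 receptors on NK and T cells, stood at 7.52, 7.42 and 7.63 in AKR/J F1 spleens and 7.28, 7.28 and 7.11 in DBA/2J F1 spleens. The crosses did not overlap, and the difference was 0.30 ± 0.09 (adjusted p = 0.0581). Il2rb passed only with each array centred on its own median (0.34, adjusted p = 0.0406). Il2ra, the high-affinity IL-2 receptor chain of regulatory and activated T cells, was below the median on all arrays (4.10 ± 0.37 and 4.07 ± 0.14, mean ± SD, n = 3 each, difference 0.03). Il15ra and Il9r differed by 0.14 and -0.11. Il13ra1, the IL-13 receptor chain, had 5 probe sets that differed in what they showed. The brightest stood at 6.66, 6.42 and 6.69 in AKR/J F1 spleens and 6.40, 6.09 and 6.32 in DBA/2J F1 spleens (0.32 ± 0.11, adjusted p = 0.102 over probe sets). A dimmer one stood at 5.65, 5.6 and 5.87 in AKR/J F1 spleens and 5.25, 4.93 and 4.98 in DBA/2J F1 spleens, and passed (0.65 ± 0.11, adjusted p = 0.0168 over probe sets), as did another (0.61 ± 0.14, adjusted p = 0.0350). The remaining ones gave 0.19 and, near the bottom of the scale, -0.10. The mean of its probe sets passed (0.33, adjusted p = 0.0420). Of the common beta chain receptors, Il3ra was higher in all 3 DBA/2J arrays (-0.21 ± 0.09, adjusted p = 0.138) and Il5ra differed by -0.12 ± 0.09, neither passing. The remaining receptors did not pass either: Il13ra2, a decoy for IL-13, differed by -0.21 ± 0.12, Il31ra by -0.28 ± 0.15, and the IL-12 receptor chains Il12rb1 and Il12rb2 by -0.06 and 0.04.

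Il18bp and Il4i1 were called on opposite sides. Il18bp, the soluble inhibitor that captures IL-18, stood at 7.09, 7.17 and 7.21 in AKR/J F1 spleens and 6.61, 6.67 and 6.79 in DBA/2J F1 spleens. It was 1.38-fold higher in AKR/J F1 spleens (0.47 ± 0.08, adjusted p = 0.0157), while Il18 itself differed by 0.14. Il4i1, an IL-4-induced L-amino acid oxidase, stood at 3.42, 3.40 and 3.45 in AKR/J F1 spleens and 4.10, 3.87 and 3.87 in DBA/2J F1 spleens. It was 1.44-fold higher in DBA/2J F1 spleens (-0.52 ± 0.09, adjusted p = 0.0138) at a level below the median on every array. As for Il1f6, the distance of Il4i1 from background is not known. Il1bos differed by -0.11 ± 0.11, at 2.51 and 2.61.

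The Il4i1 call passed in limma whichever array was left out. Its adjusted p was 0.0143 without DBA/2J F1 replicate 1 and 0.0366 to 0.0498 without each of the others, near the threshold. Il18bp passed in 4 of 6 such fits, failing without AKR/J F1 replicate 3 (adjusted p = 0.0553) or DBA/2J F1 replicate 2 (0.0568). Il17rb failed in 3 (0.0528 to 0.0600, without AKR/J F1 replicate 3 or DBA/2J F1 replicates 2 or 3). Il17re failed in 4 (0.0533 to 0.0587, without AKR/J F1 replicates 1 or 2 or DBA/2J F1 replicates 2 or 3), and Il1f6 in 4 (0.0582 to 0.0656, without AKR/J F1 replicates 1 or 3 or DBA/2J F1 replicates 2 or 3). Il1a (0.0615 to 0.0942), Il1f5 (0.0503 to 0.0646), Il10rb (0.0576 to 0.0856), Il27ra (0.0543 to 0.0827) and Il17ra (0.0568 to 0.0798) passed only without DBA/2J F1 replicate 1 and failed without each of the other 5 arrays. Il6ra failed in all 6 (0.0780 to 0.134). The direction of each of the 11 was the same in every setting run.

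**Figure D5:**
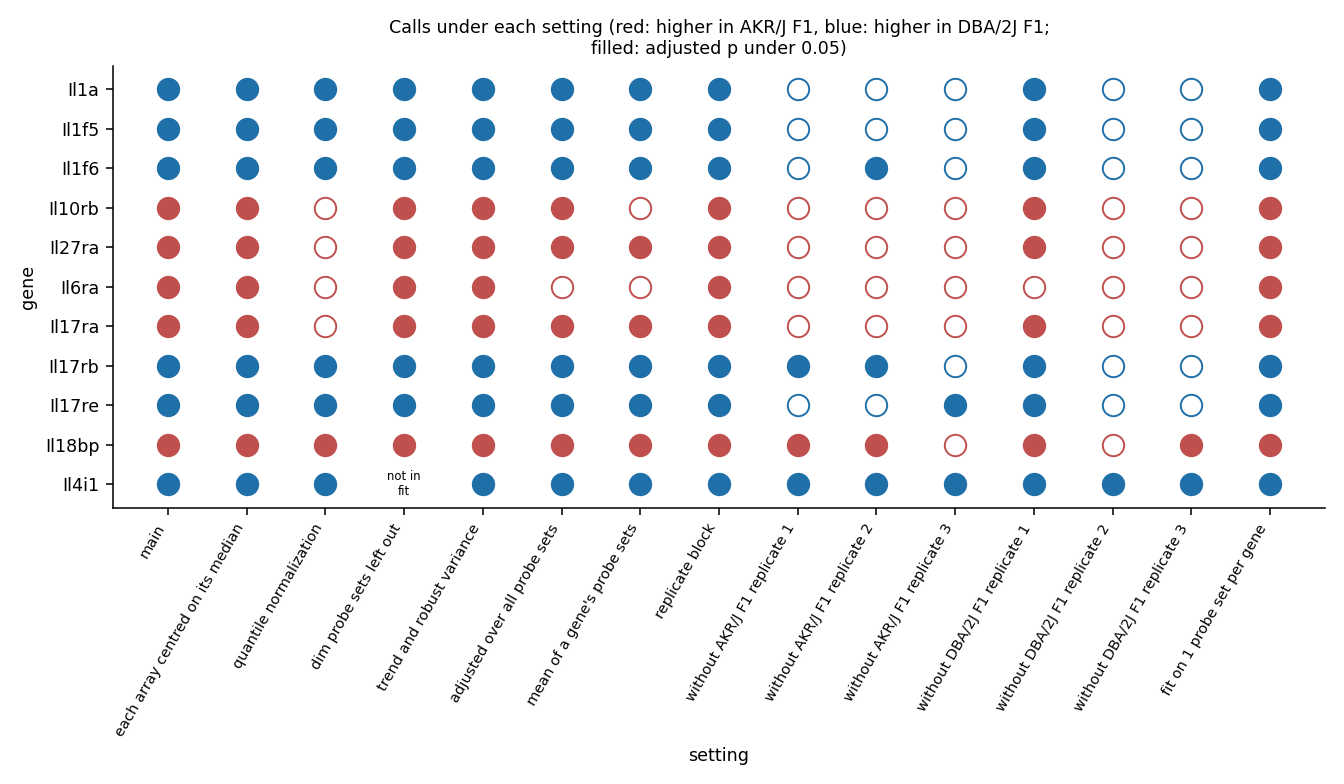
Calls for the 11 genes (rows) in the main fit and 14 alternative settings (columns), red for higher in AKR/J F1 spleens and blue for higher in DBA/2J F1 spleens, filled past an adjusted p of 0.05. Il4i1 is filled in every fit that includes it, and the 4 receptors higher in AKR/J F1 spleens are open after quantile normalization.

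Genes through which the receptors signal were compared as a list of 53, of which 50 were measured: 11 passed, 9 toward the AKR/J side and 2 toward the DBA/2J side, beside 15.1% of all genes, and 11.3% and 6.34% in those directions among genes above the median on all arrays. Its median difference was 0.17, and 45 of its 50 genes lay above the median on all arrays, where all genes had a median of 0.09. Stat3, the transcription factor downstream of IL-6, IL-10 and IL-27 receptors, stood at 10.54, 10.52 and 10.60 in AKR/J F1 spleens and 10.13, 10.12 and 10.13 in DBA/2J F1 spleens (0.43 ± 0.07, adjusted p = 0.0138). Its crosses are separated by far more than either spread at this probe set, but the mean of its probe sets differed by 0.06 (adjusted p = 0.664). Jak3, the kinase bound to the common gamma chain, stood at 8.37, 8.41 and 8.52 and at 8.04, 7.87 and 7.96 (0.48 ± 0.09, adjusted p = 0.0156). Irak3, an inhibitor of IL-1 family signalling, stood at 7.52, 7.46 and 7.48 in AKR/J F1 spleens and 7.01, 6.90 and 6.62 in DBA/2J F1 spleens (0.64 ± 0.11, adjusted p = 0.0130), and passed whichever array was left out. Stat3 failed without AKR/J F1 replicate 3 (adjusted p = 0.0513) or DBA/2J F1 replicate 2 (0.0519), and Jak3 without the same arrays (0.0546 and 0.0575).

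Traf3ip2, the adaptor of the IL-17 receptors, was 0.46 ± 0.10 higher in AKR/J F1 spleens (adjusted p = 0.0260), the same side as Il17ra. Stat4, which IL-12 activates, differed by 0.47 ± 0.10 (adjusted p = 0.0231). Both had adjusted p above 0.05 after quantile normalization (0.0681 and 0.0558). Both also failed without each array other than DBA/2J F1 replicate 1, with adjusted p of 0.0586 to 0.0804 for Traf3ip2 and 0.0551 to 0.0750 for Stat4. The survival gene Bcl2, which IL-7 maintains in lymphocytes, differed by 0.79 ± 0.17 (adjusted p = 0.0260), though the mean of its probe sets differed by 0.10 (adjusted p = 0.543). It failed without AKR/J F1 replicates 2 (0.0558) or 3 (0.0625) or DBA/2J F1 replicate 3 (0.0736). Stat6 (0.36, adjusted p = 0.0353), Gata3 (0.39, adjusted p = 0.0403) and Stat5b (0.30, adjusted p = 0.0422) were the other calls toward AKR/J F1 spleens. Stat6 and Stat5b passed only without DBA/2J F1 replicate 1 and failed without each other array (0.0642 to 0.106 and 0.0834 to 0.125), and neither passed after quantile normalization (0.0779 and 0.137). Gata3 passed only without AKR/J F1 replicate 2 (0.0593 to 0.116 without each other array).

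The list's calls toward DBA/2J F1 spleens were Pim1 and Cish, a kinase and a feedback inhibitor that STAT5 induces. Pim1 stood at 8.03, 7.81 and 8.06 in AKR/J F1 spleens and 8.34, 8.44 and 8.74 in DBA/2J F1 spleens (-0.54 ± 0.12, adjusted p = 0.0286). Cish stood at 6.37, 6.15 and 6.40 and at 6.65, 6.85 and 6.66 (-0.41 ± 0.10, adjusted p = 0.0343). Both failed without each array other than DBA/2J F1 replicate 1, with adjusted p of 0.0637 to 0.0800 for Pim1 and 0.0659 to 0.104 for Cish. The erythroid list moved the same way, with 8 of 8 genes called higher in DBA/2J F1 spleens and a median of -1.78. So did the cell cycle list, with 7 of 7 genes called higher, a median of -1.32 and averages of 7.36 to 7.95 in AKR/J F1 spleens against 8.49 to 9.45 in DBA/2J F1 spleens. In that direction 7.35% of all genes were called, and 6.34% of genes above the median on all arrays. The part of either list in these values, and in those of Il1a, Il1f5, Il1f6, Il17re, Il17rb and Il4i1, was not tested.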

How the data were processed

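Per the labels' protocols, RNA was extracted with Trizol from snap-frozen spleen and labelled with biotin for 1-colour Affymetrix arrays. The authors deposited log2 values, 1 per probe set and array, on a common scale. RMA and MAS5 are named, per the submitters' processing notes; the sources used here do not say which gave these values. A sequence difference between parents within a probe's target could change its signal, which was not tested.

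Groups and replicate numbers came from the titles. Of 45101 probe sets, 64 controls were left out. Of the other 45037, platform annotation gave 34945 exactly 1 symbol, 932 several and 9160 none listed here. Differences were fitted with limma 3.58.1 (lmFit, eBayes) in R 4.3.3 on all 45037 probe sets and 6 arrays, without covariates, with 4 residual degrees of freedom each. Benjamini-Hochberg adjustment ran over 18193 genes, or over probe sets where stated, two-sided at 0.05. With 3 arrays against 3 an exact permutation test cannot go below p = 0.1. Depth has no meaning for arrays, and their number limits the precision. Neighbours were taken from protein-coding genes of GRCm38.p6, in which 72 of 73 members matched. Promoter windows were found for 57 members, 7 of them among the 11 called.

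In data simulated for this comparison with 18193 genes, limma called 46 and 41 of 50 genes changed by 1 log2 unit down and up, 24 and 18 of 50 changed by 0.5, and 4 of 17993 unchanged genes. The simulation changed far fewer genes than the 2755 called in the data and drew noise separately for each probe set. Its rates therefore need not hold for the data. Members and lists were chosen with earlier results of these data known. Named in full are all called members, the 5 ligands and 5 receptors with the largest differences that did not pass, and up to 8 called signalling genes with the smallest p. Other members are given by level (8 ligands and 12 receptors farthest above the median), probe set disagreement, chromosomal neighbours or family. Alternatives were median centring, quantile normalization, leaving out probe sets under the 40th percentile, trended and robust variance (statmod 1.5.0), adjustment over probe sets, averaging each gene's probe sets, the replicate number as a block, each array left out, and, added after seeing the data, a fit on 1 probe set per gene.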

Additional observations from a re-analysis of the deposited data

How the results depend on the processing

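In 39 counts recomputed under settings other than leaving out an array, the value stayed within 1.5 times the main one, the fit on 1 probe set per gene (chosen after seeing the data, 3133 genes) included. Quantile normalization gave 3 receptors in place of 6, 7 signalling genes in place of 11 and 1664 genes in place of 2755. Averaging each gene's probe sets gave 5 ligands in place of 3. Leaving out dim probe sets removed Il4i1 from the fit, which left Il18bp as the 1 call among the genes that are neither ligand nor receptor. The 3 ligands and 6 receptors were still called. Against the median over genes, 6 ligands in place of 10 and 13 receptors in place of 20 were bright. With 1 array left out, the counts ran from 0 to 4 ligands, 0 to 6 receptors, 1 to 2 others, 2 to 12 signalling genes and 603 to 2911 genes called, and from 10 to 11 ligands and 20 to 21 receptors bright. The Il6 difference ran from -0.34 to 1.16, and was below 0 without AKR/J F1 replicate 3. Replicate numbers are shared between crosses, and the deviations of same-numbered arrays correlated at 0.201, 0.108 and 0.0451. These values have no reference beside them, so they cannot tell whether same-numbered arrays share a day or litter. With the replicate block 3 ligands, 8 receptors, 2 others, 11 signalling genes and 2643 genes were called. Il13ra1 (adjusted p = 0.0476) and Il22ra1 (0.0480) joined, and Cish (0.0534) was no longer called.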
